A study of Mus musculus with 10 samples.

Results

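The p53 response genes are 10 genes chosen by symbol, namely Trp53, which encodes p53 itself, its regulators Mdm2 and Mdm4, and the target genes Cdkn1a, Ccng1, Gadd45a, Bax, Bbc3, Trp53inp1 and Trp53inp2. All 10 were found among the 21098 genes of the count table. They were followed in gastrocnemius (GAS), a hindlimb muscle rich in fast fibers, of diet-induced obese (DIO) mice. All mice were wild-type C57BL/6J males that started the D12492i high fat diet at 9 weeks of age. They ate it for 9 weeks before treatment, with over 40 g as the weight to be reached, and stayed on it during treatment. Over the 14 weeks of treatment, 5 mice received weekly subcutaneous injections of an anti-miR-22 antisense oligonucleotide (anti-miR-22 ASO, RES-010 in the labels) at 10 mg/kg. The other 5 received matched volumes of saline (CTRL). The labels give an age of 30 weeks at the end, which these periods exceed when added up. In the study's weight table some DIO control mice were still below that weight when treatment began, whereas every treated mouse was above it. If these are the sequenced mice, which is not stated, starting weight and treatment cannot be told apart. The ASO has locked nucleic acid bases on a phosphorothioate backbone, and the controls received no oligonucleotide of unrelated sequence. An effect of miR-22 inhibition and an effect of carrying any such oligonucleotide can therefore not be told apart. The comparison asks which of these genes differ in the muscle of treated mice.

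The transcription factor p53 is made continuously and destroyed as fast, because Mdm2, a ubiquitin ligase whose own gene is a p53 target, marks it for the proteasome, while Mdm4, a relative of Mdm2, binds and silences it. DNA damage, ribosomal stress or oncogene activity frees p53, which then switches on genes that stop the cell cycle, repair DNA, change metabolism or start apoptosis. In muscle the same genes are also known from denervation, disuse and ageing, where several of them, Cdkn1a and Gadd45a among them, are induced.

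MiR-22 is abundant in muscle, and a miRNA pairs through its seed, bases 2 to 8, with sites in 3′UTRs. Its mature sequence, which the ASO is made to pair with, is shown first with the seed in capitals (RefSeq, GRCm38.p6, plus strand of chr11:75463772-75463793).
miR-22-3p: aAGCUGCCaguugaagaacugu
The complementary heptamer GGCAGCT was sought on the sense strand of each gene's longest 3′UTR in the annotation, where 16.7% of 20969 genes hold at least 1 copy. Of the 10 p53 response genes 4 hold one, and their sites follow with the heptamer in capitals, because they are the places at which miR-22 could pair with these transcripts. Bases are from GRCm39, and the coordinates are those of the heptamer.
Mdm4 chr1:132913850-132913856: tgattaaaagtcattGGCAGCTt
Mdm4 chr1:132914113-132914119: taaactgagaagaagGGCAGCTt
Cdkn1a chr17:29319204-29319210: cctggtcttaccttaGGCAGCTc
Trp53inp1 chr4:11173677-11173683: tactattcagaggaaGGCAGCTt
Trp53inp1 chr4:11174119-11174125: aatctatgcataaatGGCAGCTt
Trp53inp2 chr2:155228668-155228674: cggcccaagcaccagGGCAGCTt
These 3′UTRs are of unequal length, at 6145 bp for Mdm4, 5271 bp for Trp53inp1, 4116 bp for Trp53inp2 and 1334 bp for Cdkn1a, beside a median of 1468 bp over all genes. The other 6 genes, Trp53, Mdm2, Ccng1, Gadd45a, Bax and Bbc3, have no such heptamer in 3′UTRs of 271 to 2944 bp. A match is a stretch of letters and not evidence of pairing in this tissue.

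On the promoter side, the p53 response element consists of 2 half-sites of 10 bases. It was sought on both strands, with abutting half-sites, the C and G at the outer ends of each 4-base core kept and up to 2 mismatches at the other positions, from 3000 bp before to 1500 bp after the start of each canonical transcript. Such a match is present in 4.42% of 21768 windows and in those of 3 of the 10 genes, Cdkn1a, Ccng1 and Bax. The 4 matches are printed on the gene's strand with the 4 central bases of each half-site in capitals, because p53 is known to bind elements of this form, though a match is a description of letters and not a bound site.
Cdkn1a chr17:29309902-29309921: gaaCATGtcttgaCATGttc
Ccng1 chr11:40646289-40646308: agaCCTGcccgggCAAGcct
Ccng1 chr11:40645763-40645782: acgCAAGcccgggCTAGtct
Bax chr7:45115998-45116017: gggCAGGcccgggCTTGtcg
The Cdkn1a match lies 2836 bp before the start and has 1 mismatch. Of the Ccng1 matches, one lies 170 bp before and the other 356 bp after the start, with 1 mismatch each. The Bax match lies 308 bp after the start, within the gene, and has 2. No match was found in the windows of the other 7 genes, which says only that these letters are not in this window.

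The libraries held 1606909 to 2116720 counts in CTRL mice and 2239186 to 2632560 in ASO-treated mice, so the treated libraries were all deeper. Counts are read pairs on segments of at most 500 bp at the 3′ end of each annotated 3′UTR, and pairs on bases that belong to more than 1 segment went nearly uncounted, since the 18030 segments with no base of their own on their strand hold 9190 counts in all. Levels below are in CPM, the counts divided by the library total after TMM scaling in edgeR, and are summed over the segments of a gene. Errors are SDs over 5 mice unless said otherwise, and log2 fold changes are ASO minus CTRL, tested by quasi-likelihood in edgeR with p-values adjusted by Benjamini-Hochberg over 7819 genes. Of these, 916 were called higher and 1365 lower at an adjusted p under 0.05. With total counts in place of TMM that split was 528 against 1821 and the median of all genes moved from -0.03 to -0.21, and with the upper quartile the split was 1261 against 1207. One further fact bears on every gene here. Counts on the last segment, relative to segments at least 1000 bp upstream in the same gene, had a median log2 ratio of -0.44 to 0.49 in the CTRL libraries and 1.18 to 1.69 in the ASO libraries, over 1575 genes. The groups did not overlap in this index, so treatment and the position of the counted segment cannot be told apart in a fit that holds both.

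What can be counted differed widely among the 10 genes. Ccng1, Bbc3, Trp53inp1 and Trp53inp2 each have a single segment with 500 bp that belong to no other segment. Mdm4 has 2198 such bases, Gadd45a 440, Cdkn1a 134, Bax 59, Mdm2 20 and Trp53 a single one. The genes with the fewest such bases, Trp53 and Mdm2, are also those with the fewest counts, at 6 and 102 over all 10 libraries, so their low counts say nothing on how much of their mRNA is present. Where whole 500 bp segments can be compared directly, Ccng1 with 1460 ± 434 CPM and Trp53inp2 with 1046 ± 226 CPM led in CTRL mice, with SDs over mice that overlap. The last counted segment of Mdm4 followed with 41.8 ± 9.07 CPM. Its next had 21.8 ± 11.03 CPM, Trp53inp1 19.3 ± 11.5 CPM and a further Mdm4 segment 17.8 ± 9.64 CPM, again with SDs that overlap. In every CTRL library that next Mdm4 segment lay above the further one. The order of these levels within libraries was not tested. Bbc3 was last with 6.72 ± 2.92 CPM.

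**Figure D1:**
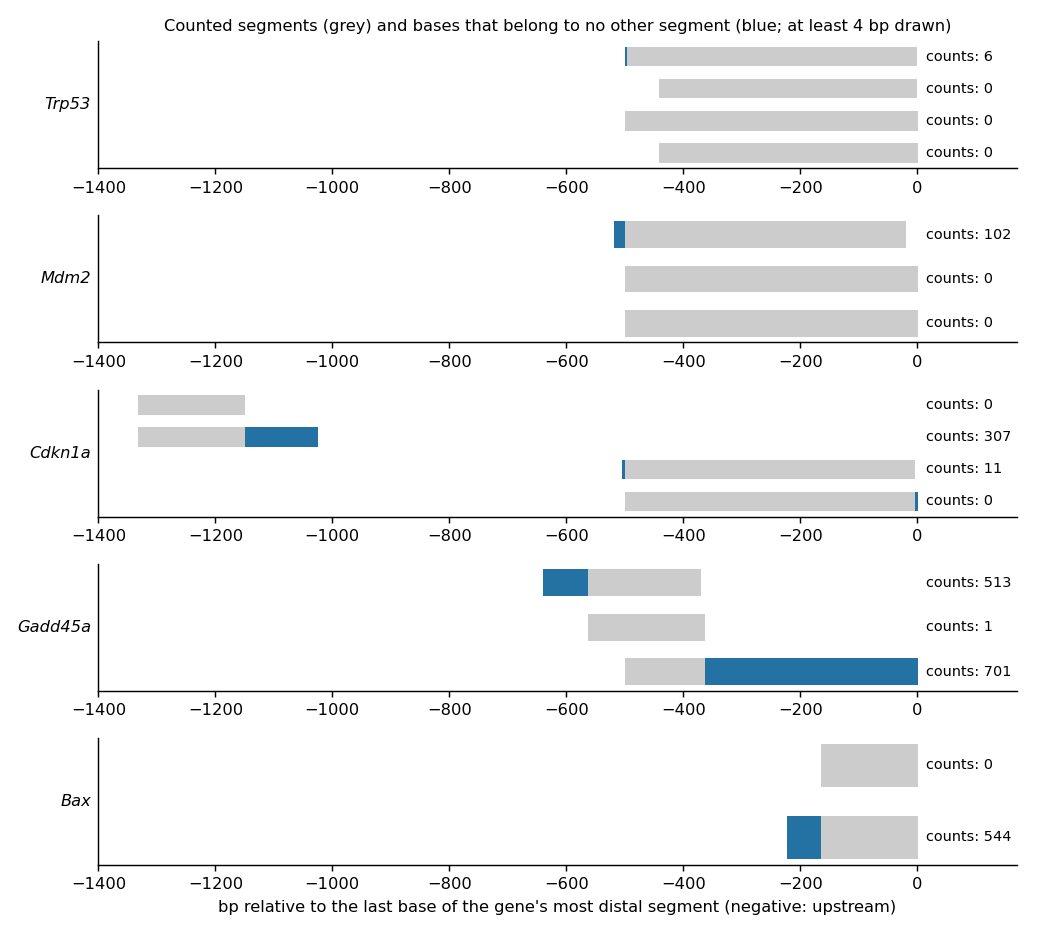
Annotated segments (grey bars, 1 per transcript) of Trp53, Mdm2, Cdkn1a, Gadd45a and Bax, whose counted stretches are cut short by overlaps, by position relative to the last base of the most distal one (x axis, bp, negative upstream), with bases that belong to no other segment in blue (drawn at least 4 bp wide) and the summed counts of the 10 libraries at the right. Counts are found on segments with blue bases, 102 for Mdm2 on 20 bases and 307 for Cdkn1a on 124, and nearly none on the others.

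Of the 10 genes, 8 passed the filter on low counts and 1 of these, Bax, was called, beside 29.2% of all genes tested. In the upward direction this is 1 of 8 beside 11.7%, and in the downward direction 0 of 8 beside 17.5%. The median log2 fold change of the 8 was 0.47, beside -0.03 over all genes, with 6 values above 0 and 2 below it. An unadjusted p under 0.05 was obtained for 4 of the 8, with Cdkn1a the 1 of them below 0, beside 41.2% of all genes tested. The 2 genes below the filter were Trp53 and Mdm2.

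**Figure D2:**
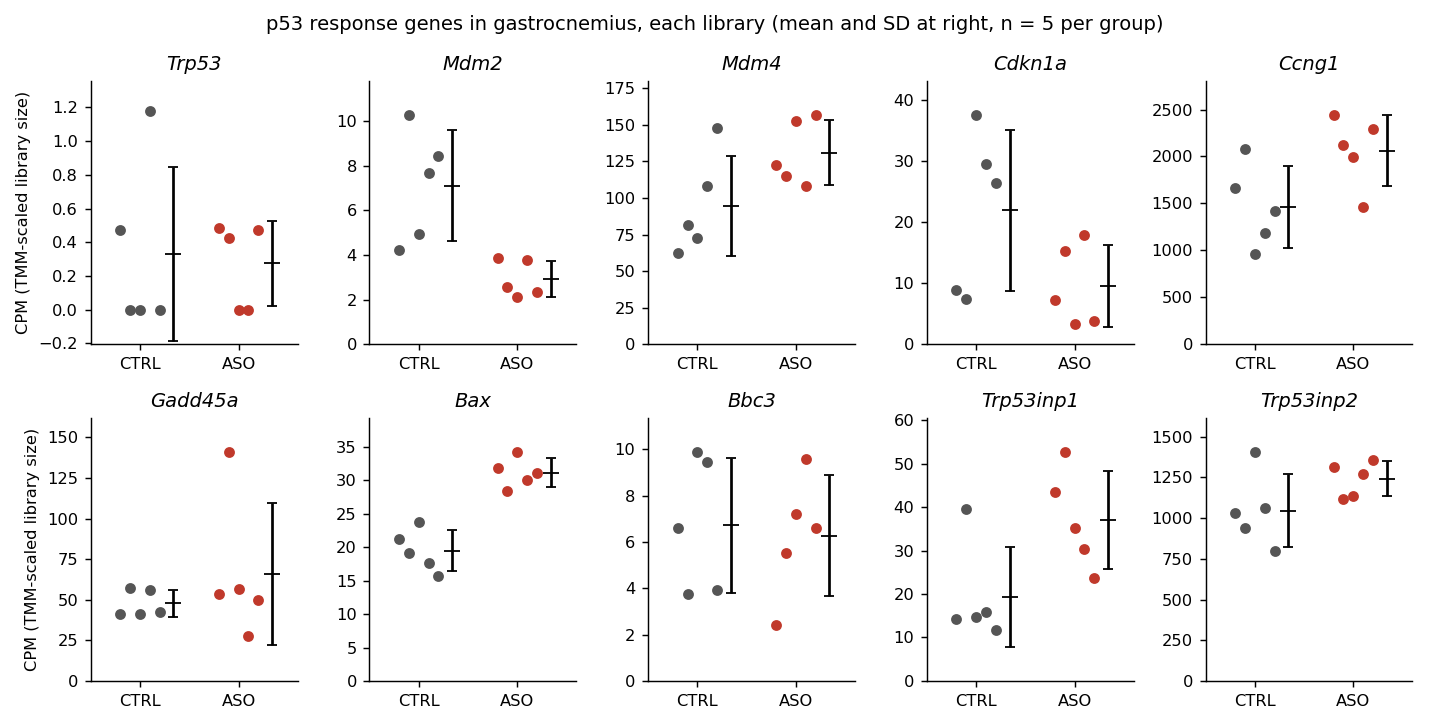
CPM of each of the 10 genes (y axis, linear, with a scale of its own in each panel) in the 5 CTRL and 5 ASO libraries (points), with the group mean and SD (bars at the right of the points). The groups are apart in Bax, with 15.7 to 23.7 against 28.5 to 34.3 CPM, and in Mdm2, and overlap in the others.

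**Figure D3:**
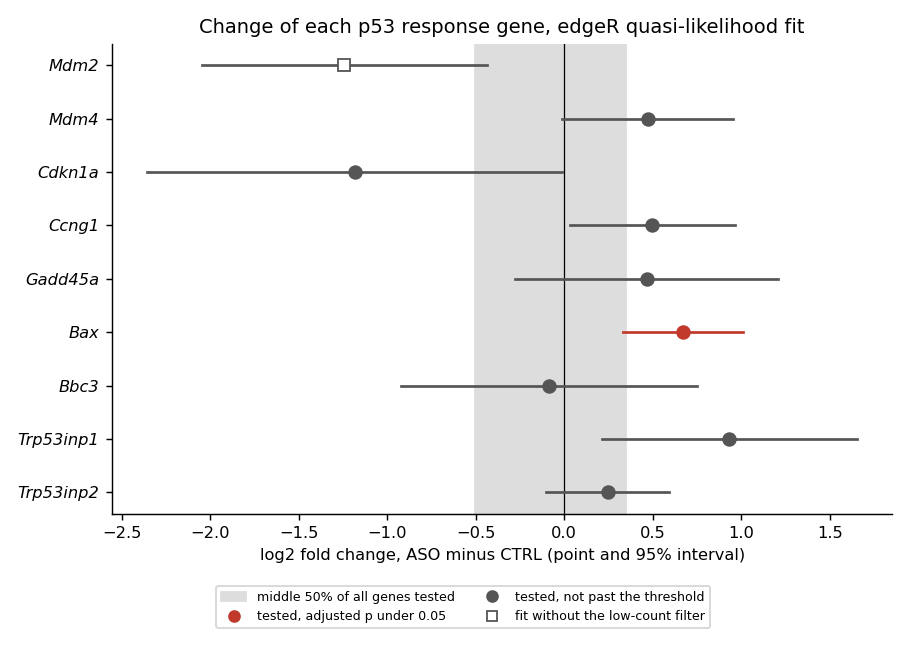
Log2 fold change, ASO minus CTRL, with its 95% interval for each gene but Trp53, whose counts allow no fold, with the middle 50% of all genes tested shaded. Bax (0.67, red) is the 1 gene past the threshold, and Mdm2 (open square) is from the fit without the low-count filter.

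Trp53 itself was at or near 0 in every library. The counts were 1, 0, 0, 2 and 0 in CTRL mice 1 to 5 and 1, 1, 0, 0 and 1 in ASO-treated mice 1 to 5. No library exceeded 3 counts, taken as the floor, and no fold is given. All 6 counts lie on a segment at chr11:69482199-69482698 (GRCm39, plus strand), of which 1 base is not shared with the other 3 segments of the gene, so these files do not measure whether Trp53 mRNA differed.

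Among the regulators, Mdm2, the ligase that targets p53 for destruction, gave 9, 22, 10, 13 and 15 counts in CTRL mice 1 to 5 and 8, 6, 5, 9 and 5 in ASO-treated mice 1 to 5. Scaled to depth these are 7.11 ± 2.49 and 2.93 ± 0.820 CPM, and every ASO library lay below every CTRL library, as in 13.4% of the genes tested. Mdm2 did not pass the filter on low counts. In edgeR's fit of all genes with a count, it changed by -1.24 on the log2 scale (SE 0.38, 95% interval -2.05 to -0.44, adjusted p 0.036). That fit called 787 genes higher and 1383 lower of 14150. All of its counts come from 20 bases, chr10:117525280-117525299 on the minus strand, at the upstream edge of the segment that ends first among 3 segments that otherwise coincide. These bases lie 500 bp before the last listed end of the gene, and no segment of Mdm2 further downstream was counted. The segment is thus the last counted one of Mdm2, and of all last counted segments tested 7.54% were called lower and 23.2% higher. At 500 to under 1000 bp upstream of the last counted segment, 35.6% were called lower and 7.41% higher. That distance is measured from counted segments, and the 500 bp given for Mdm2 from a listed end without counts of its own. The part of read position in the fall of Mdm2 was not tested.

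Mdm4, which binds p53 without degrading it, is the regulator that could be measured best. Its summed level was 62.7, 81.6, 72.6, 108 and 148 CPM in CTRL mice 1 to 5 and 123, 115, 153, 108 and 157 CPM in ASO-treated mice 1 to 5. The groups overlapped, since the CTRL library 5 lay above 3 of the ASO libraries. The change of 0.47 (SE 0.22, 95% interval -0.01 to 0.95) had an adjusted p of 0.13 in edgeR's test, and without CTRL replicate 5 it was 0.69 with an adjusted p of 0.024.

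The sum hides segments that did not behave alike. On the last counted segment of Mdm4, chr1:132913958-132914457 (minus strand), which holds 57.7% of the gene's counts and the second of its GGCAGCT heptamers printed above, the level was 41.8 ± 9.07 CPM in CTRL and 86.0 ± 14.7 CPM in ASO-treated mice. Tested per segment with edgeR over 10658 segments, of which 40.6% were called, 15.9% higher and 24.7% lower, this was a rise of 1.08 (SE 0.19, 95% interval 0.68 to 1.49, adjusted p 0.00067). The segment 3625 bp upstream had 21.8 ± 11.03 and 18.9 ± 4.82 CPM, with a change of -0.16 (adjusted p 0.71). Those 4182 bp and 5007 bp upstream changed by -0.22 and -0.17, and neither passed the threshold. Mdm4 thus gave more counts at its far 3′ end, with no called change upstream. A further annotated segment 26736 bp beyond, at the end of another transcript, had no count.

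As a share of the gene's counts, the last counted Mdm4 segment took 57.9%, 46.3%, 44.2%, 48.1% and 34.5% in CTRL mice 1 to 5 and 63.0%, 61.3%, 65.7%, 73.0% and 66.0% in ASO-treated mice 1 to 5. The groups did not overlap. The log2 ratio of last to upstream counts was 1.17 higher in ASO-treated mice (exact two-sided permutation test over 252 labellings, p = 0.0079, the smallest this design allows, and 0.016 after Benjamini-Hochberg adjustment over 2 genes, both chosen after their values were seen). The genome-wide index of the same kind separated the groups too, with a mean of 0.06 in CTRL and 1.39 in ASO libraries. The shift of 1.17 in Mdm4 was thus no larger than that of this median over 1575 genes. Per segment the median change fell from 0.26 on last counted segments, over 6035, to -0.99 on the 2397 that lie 2000 bp or more upstream. The part of the treatment and of the read position in the Mdm4 values was not tested.

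**Figure D4:**
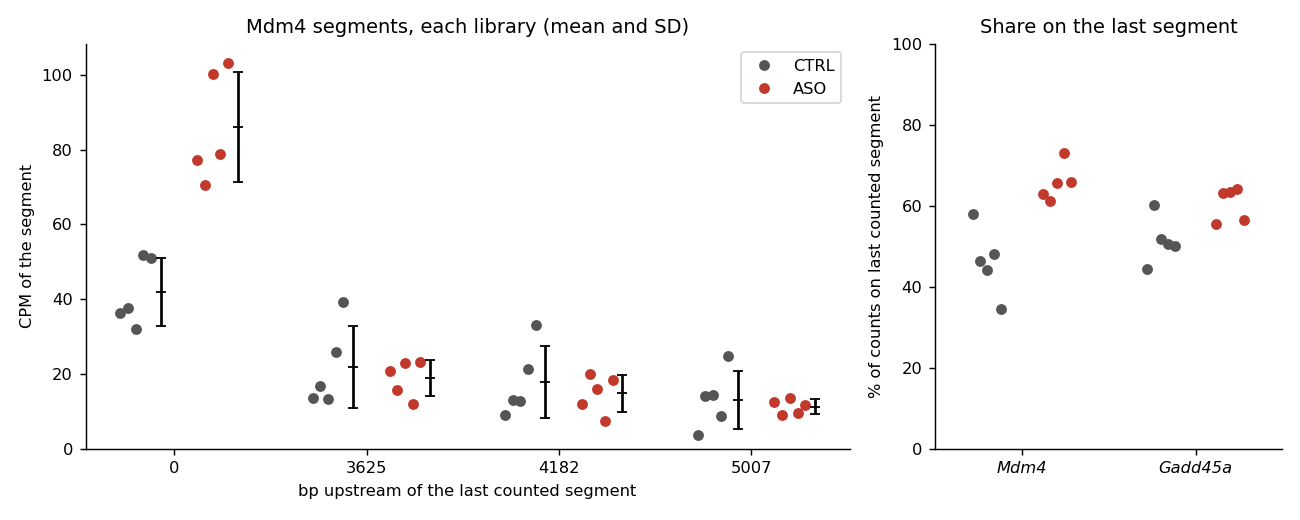
CPM of the 4 counted Mdm4 segments by their distance upstream of the last counted one, for the 5 CTRL and 5 ASO libraries (points) with mean and SD (left), and the percent of counts on the last counted segment of Mdm4 and Gadd45a in each library (right). On the last counted segment the ASO libraries (mean 86.0 CPM) lie above the CTRL libraries (mean 41.8 CPM), and upstream the groups overlap.

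Turning to the genes of cell cycle arrest, Cdkn1a encodes p21, the Cdk inhibitor through which p53 stops cells in G1 phase, and was the tested gene with the largest difference in either direction. Its level was 8.96, 7.46, 37.5, 29.5 and 26.4 CPM in CTRL mice 1 to 5 and 7.24, 15.3, 3.38, 17.9 and 3.77 CPM in ASO-treated mice 1 to 5. The CTRL libraries fell into 2 low and 3 high values, and the 2 low ones lay within the range of the ASO libraries. The change was -1.18 (SE 0.54, 95% interval -2.35 to -0.01), with an unadjusted p of 0.048 and an adjusted p of 0.12 in edgeR's test. It was called in none of the fits that left out a library.

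Where in Cdkn1a these counts lie limits what they measure. The segment at chr17:29318368-29318675 (plus strand) holds 96.5% of them, on 124 bases that end 1026 bp before the last listed end of the gene. The 2 segments at the end itself differ by 5 bases on either side and hold 11 counts in all, and the GGCAGCT heptamer of Cdkn1a lies in the stretch they share. The value for Cdkn1a is therefore that of an upstream stretch, and of all segments tested at 1000 to under 2000 bp upstream, 49.8% were called lower and 4.79% higher.

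Ccng1, the gene of cyclin G1 and a p53 target that recruits a phosphatase to Mdm2, led the genes with a whole segment. It had 1659, 2081, 959, 1186 and 1417 CPM in CTRL mice 1 to 5 and 2438, 2121, 1995, 1461 and 2294 CPM in ASO-treated mice 1 to 5. Its group means were 1460 ± 434 and 2062 ± 376 CPM, and the highest CTRL library lay above 2 ASO libraries. The change of 0.50 (SE 0.22, 95% interval 0.03 to 0.96) missed the threshold with an adjusted p of 0.0997 by edgeR. It passed without CTRL replicate 2 (0.66, adjusted p 0.033) or without ASO replicate 4 (0.62, adjusted p 0.046).

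Gadd45a, a stress sensor that acts in growth arrest and DNA repair and is known to rise in denervated muscle, had 41.5, 57.4, 41.0, 56.1 and 42.7 CPM in CTRL mice 1 to 5. In ASO-treated mice 1 to 5 it had 53.6, 141, 56.7, 28.0 and 49.98 CPM. One ASO library was far above the other 9, and the lowest value of all was an ASO library too. The change of 0.47 (SE 0.34, 95% interval -0.28 to 1.21, adjusted p 0.33 by edgeR) was -0.01 without ASO replicate 2.

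Gadd45a also has segments at different distances, and again the last one carried more of the counts in treated mice. The segment at chr6:67012080-67012579 (minus strand) held 44.3% to 60.2% of the counts on the 2 measurable segments in CTRL mice and 55.5% to 64.2% in ASO-treated mice, so the groups overlapped. The log2 ratio was 0.54 higher in ASO-treated mice (exact two-sided permutation test, p = 0.032, also 0.032 after adjustment over the same 2 genes). The other measurable segment lies 370 bp upstream. Over all segments tested, the median change was 0.26 on last counted segments and -0.12 on those under 500 bp upstream, so a shift in this direction is not particular to Gadd45a. Taken singly, neither segment passed the threshold per segment, with changes of 0.73 (adjusted p 0.13) and 0.19 (adjusted p 0.66) in edgeR's fit.

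Of the genes of apoptosis, Bax, which opens the outer mitochondrial membrane and so releases cytochrome c, was higher in ASO-treated mice. Its level was 21.2, 19.1, 23.7, 17.7 and 15.7 CPM in CTRL mice 1 to 5 and 31.9, 28.5, 34.3, 30.1 and 31.1 CPM in ASO-treated mice 1 to 5. All 5 ASO libraries lay above all 5 CTRL libraries, as they did in 7.98% of the genes tested, and Bax was the only one of the 8 tested p53 response genes without overlap, where 21.4% of all genes had none. The group means were 19.5 ± 3.10 and 31.1 ± 2.15 CPM. The change was 0.67 (SE 0.16, 95% interval 0.33 to 1.01), a 1.59-fold rise with an adjusted p of 0.0076 by edgeR's quasi-likelihood test.

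Bax kept its call in all 10 fits that left out a library, with changes of 0.60 to 0.75. Its counts lie on 59 bases, chr7:45111286-45111344 (minus strand), that end 165 bp before the last listed end. In a fit of only the most distal counted segment of each gene, the counts of Bax stay the same and those of genes with several counted segments do not. There the change was 0.44 (adjusted p 0.063) and was not called. With the index of last to upstream counts as a covariate in edgeR it was 0.26 (adjusted p 0.97). That fit called 0 genes of all tested, with 438 at an unadjusted p under 0.05, and index and treatment are confounded in it.

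Bbc3 encodes Puma, a BH3-only protein that sets Bax free by binding its inhibitors. It was low, at 6.60, 3.73, 9.88, 9.44 and 3.93 CPM in CTRL mice 1 to 5 and 2.41, 5.52, 7.19, 9.60 and 6.60 CPM in ASO-treated mice 1 to 5. The groups covered about the same range. The change was -0.09 (SE 0.39, 95% interval -0.92 to 0.75, adjusted p 0.88 by edgeR), an interval wide enough to hold the rise seen in Bax, so no difference was detectable at this depth. The test of Bax against Bbc3 was not made.

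The last pair, Trp53inp1 and Trp53inp2, encodes related proteins that bind the Atg8 family of autophagosome proteins. Trp53inp1 is a p53 target that feeds back on p53 through Hipk2, while Trp53inp2, despite its name, is chiefly known from autophagy and protein breakdown in muscle. Trp53inp1 had 14.1, 39.6, 14.8, 15.9 and 11.8 CPM in CTRL mice 1 to 5 and 43.5, 52.7, 35.1, 30.5 and 23.6 CPM in ASO-treated mice 1 to 5. Of the CTRL libraries 4 lay below every ASO library, and CTRL library 2 lay among them. The change of 0.93 (SE 0.33, 95% interval 0.21 to 1.65) had an adjusted p of 0.052 by edgeR, just over the threshold.

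The call for Trp53inp1 depended on the fit. It was called in 8 of 13 other fits, limma-voom (1.01, adjusted p 0.031) and DESeq2 (0.97, adjusted p 0.035) among them. By edgeR it was not called with total counts (0.77, adjusted p 0.10) or on the most distal counted segments (0.73, adjusted p 0.15). With the index as covariate its change was 0.0078. Of the 10 fits with a library left out 2 called it. Without CTRL replicate 2, its highest CTRL library, the change was 1.39 (adjusted p 0.0024). The counts are those of chr4:11173880-11174379 (plus strand), the last 500 bp of the transcript, and this stretch holds the second of its printed GGCAGCT heptamers. Per segment the change was 0.97 (adjusted p 0.029).

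Trp53inp2 was the second most abundant of the whole-segment genes. It had 1029, 939, 1406, 1061 and 796 CPM in CTRL mice 1 to 5 and 1317, 1120, 1138, 1274 and 1358 CPM in ASO-treated mice 1 to 5. Every ASO library lay above 4 of the CTRL libraries and below CTRL library 3. The change was 0.25 (SE 0.16, 95% interval -0.10 to 0.59, adjusted p 0.27 by edgeR), an interval that holds both a small fall and a rise.

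The segments of these genes can also be set beside segments at the same position. Of the 6035 last counted segments tested, 23.2% were called higher and 7.54% lower, with a median change of 0.26. Above that median lay the last counted segments of Mdm4 (1.08), Trp53inp1 (0.97), Gadd45a (0.73), Bax (0.71) and Ccng1 (0.54), with Trp53inp2 (0.29) close to it and Bbc3 (-0.04) below it. Of these 7 segments, those of Mdm4, Trp53inp1 and Bax passed edgeR's threshold per segment.

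**Figure D5:**
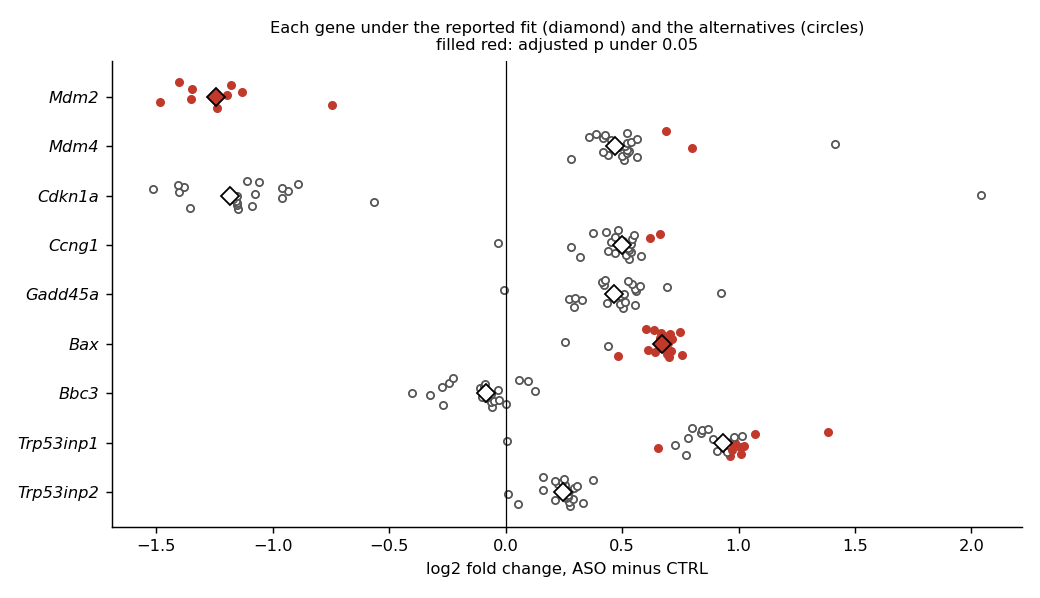
Log2 fold change, ASO minus CTRL (x axis), of each gene but Trp53 in the fit reported here (diamonds) and in the other fits, those with a library left out included (circles), filled red where the adjusted p was under 0.05. Bax is red but for the fits of the most distal segments (0.44) and with the index as covariate (0.26), Mdm2 is red in each fit that gave it a value, Trp53inp1, Mdm4 and Ccng1 are red in some, and Cdkn1a, Gadd45a, Bbc3 and Trp53inp2 in none. Where the low-count filter was applied, Mdm2 passed it through the CTRL libraries, where it is higher, so its calls there are no further support.

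Around these 10 genes, 9 lists of the p53 pathway hold 130 further genes, of which 74 were tested and 24.3% called, 9 higher and 9 lower, where 29.2% of all genes were called. With total counts in place of TMM the split was 3 higher and 17 lower, and on the most distal counted segments 3 higher and 6 lower. All 9 genes called higher have most of their counts on their last counted segment. Of such segments 23.2% were called higher and 7.54% lower, with a median change of 0.26. The part of this position in their rises was not tested. Of 11 tested activators and cofactors of p53, 2 were higher and 2 lower, with a median of 0.05. Rpl11, a ribosomal protein that blocks Mdm2 when ribosomes fail to assemble, rose from 85.6 ± 12.2 to 168 ± 34.01 CPM (0.97, adjusted p 0.0012 by edgeR). The acetyltransferase gene Ep300 rose by 0.70 (adjusted p 0.035). Usp7, which removes ubiquitin from p53 and from Mdm2, fell from 136 ± 13.4 to 83.2 ± 14.4 CPM (-0.71, adjusted p 0.0036), but 76.1% of its counts lie 546 bp upstream of its last counted segment, a distance at which 35.6% of segments (500 to under 1000 bp) were called lower.

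The largest change in any of these lists was that of Hipk2, a kinase that phosphorylates p53 for apoptosis and partners Trp53inp1. It fell from 76.0 ± 52.1 to 1.51 ± 0.986 CPM (-5.60, SE 0.62, adjusted p 0.00014 by edgeR), with every ASO library below every CTRL library. All of its 725 counts lie on 1 segment of 4.

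Of 9 tested restraints on p53, 2 fell and none rose, with a median of -0.46. The fall of the ubiquitin ligase genes Huwe1 (-2.97, adjusted p 0.0030 by edgeR) and Cop1 (-1.10, adjusted p 0.022) makes up that count. In the CTRL libraries both were variable, with 30.4 ± 25.2 and 15.1 ± 6.89 CPM.

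Among 15 tested p53 targets of arrest, repair and metabolism, 1 rose and 2 fell, with a median of 0.29. Fdxr, a mitochondrial reductase, rose by 0.84 (adjusted p 0.034 by edgeR), whereas Rrm2b, the ribonucleotide reductase subunit that p53 induces, fell by 0.57 on the log2 scale (adjusted p 0.018). Tigar, which diverts glucose from glycolysis, was lower at -0.60 (adjusted p 0.021), but 58.6% of its counts lie 2765 bp upstream of its last counted segment, and in the fit of most distal segments it changed by 0.18. Of the targets of apoptosis 4 could be tested, with a median of 0.16, and Siva1, a pro-apoptotic protein, rose by 0.76 (SE 0.21, adjusted p 0.016) to 32.3 ± 7.72 CPM in ASO-treated mice.

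Beside Bax and Bbc3, the Bcl-2 family and the caspase cascade gave 1 higher and 1 lower of 11 tested, with a median of -0.19. Both are genes that protect cells. Mcl1 rose from 275 ± 18.8 to 381 ± 48.9 CPM (0.47, adjusted p 0.015 by edgeR) and Bcl2l2, which encodes Bcl-w, fell from 52.3 ± 9.14 to 22.1 ± 5.59 CPM (-1.24, adjusted p 0.00099), with 75.1% of its counts 139 bp upstream of its last counted segment and 6.23% on that one.

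Beside Cdkn1a and Ccng1, 9 Cdk inhibitors, cyclins and pocket proteins were tested, of which 1 rose and 2 fell, with a median of -0.19. Cdkn1b, which encodes the p21 relative p27, fell from 37.8 ± 4.68 to 17.1 ± 3.88 CPM (-1.15, adjusted p 0.00096 by edgeR). Rbl2, a pocket protein, fell by 0.72 on the log2 scale (adjusted p 0.021) and E2f4, its partner in holding cells at rest, rose by 1.03 (adjusted p 0.0026). None of the 4 proliferation genes tested was called, and the other 12 of that list had too few counts to test. Among these, Bub1 and Mcm7 have at most 9 bases of their own and no count, which does not measure their mRNA.

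Among the relatives of p53 and Gadd45a, 1 of 3 tested was called. Gadd45g rose from 325 ± 112 to 580 ± 182 CPM (0.83, adjusted p 0.044 by edgeR). Of 8 tested autophagy partners of the Trp53inp proteins 2 rose, with a median over the list of -0.28. Map1lc3a, an Atg8 family member, went from 763 ± 27.5 to 1074 ± 125 CPM (0.49, adjusted p 0.011), and Ulk1, the kinase that starts autophagy, from 178 ± 23.0 to 241 ± 31.7 CPM (0.43, adjusted p 0.031). With total counts in place of TMM this list had 0 higher and 3 lower, and neither Map1lc3a (0.31, adjusted p 0.082 by edgeR) nor Ulk1 (0.25, adjusted p 0.16) was called. With at least 10 counts in every library it had 2 higher and 2 lower, and on the most distal counted segments 0 higher and 2 lower.

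Of the 18 pathway genes named, Rpl11, Hipk2, Usp7, Huwe1, Siva1, Mcl1, Bcl2l2, E2f4, Cdkn1b and Map1lc3a kept their call in all 10 fits that left out a library. Rrm2b lost it without ASO replicate 1, and Cop1 without ASO replicate 1 or CTRL replicate 5. Tigar and Rbl2 kept it in 6 of the 10, Ulk1 in 4, and Ep300, Fdxr and Gadd45g in 3. The rises depended on scaling too. With total counts in place of TMM, Rpl11, Siva1 and E2f4 were still called higher by edgeR. Mcl1 (0.29, adjusted p 0.11), Fdxr (0.67, adjusted p 0.091) and Ep300 (0.52, adjusted p 0.078) were not, nor were Gadd45g, Map1lc3a and Ulk1.

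Of the 130 genes, 18 had no count in any library. Among them 15, Sesn1, Ei24 and Xiap included, have at most 30 bases of their own in these segments, so a 0 here is not a measure of their mRNA.

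Gastrocnemius is a mixed tissue, and in such bulk samples fewer cells of a type and less RNA per cell cannot be told apart. The counts of called markers below stand beside 11.7% of all genes tested called higher and 17.5% lower. The summed level of 13 skeletal muscle markers was 49641 to 98151 CPM in CTRL and 101994 to 164640 CPM in ASO-treated mice, so the groups did not overlap, and 3 of 5 tested markers were higher. Most of that sum came from Acta1, Ckm and Tnnc2, with CTRL means of 39775, 19247 and 13417 CPM. Mb, Mylpf and Tnnt3 were listed at 0 and have at most 10 bases of their own. Summed macrophage markers had 263 to 1621 CPM in CTRL and 75.0 to 584 CPM in ASO-treated mice, with 1 of 6 tested lower and Adgre1 at 0. Fibroblast markers had 239 to 457 and 71.2 to 361 CPM (1 of 4 lower, Dcn at 0), adipocyte markers 843 to 13261 and 714 to 3619 CPM (0 of 5 called, Pparg at 0), and satellite cell markers 101 to 175 and 152 to 344 CPM (1 of 3 higher, Calcr at 0). Endothelial and Schwann cell markers had 197 to 348 and 78.8 to 164 CPM in CTRL against 180 to 394 and 39.6 to 541 CPM in ASO-treated mice, with none called. The part of these differences in the values of the p53 response genes was not tested.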

How the data were processed

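Gastrocnemius RNA from 10 mice (5 per group, by the labels' treatment) was sequenced as stranded mRNA libraries. The authors used fastp for trimming and STAR for alignment to GRCm39. They deposited raw counts, in which featureCounts assigned read pairs to 3′UTR ends of at most 500 bp (annotation named as Gencode M25), and tested them by DESeq2 with ashr. The strand option is not given in the sources used here, and 4 further per-sample columns were not used. Of 52423 segments, 52361 were matched to GENCODE M39, and the 62 others (0.0197% of counts) stayed as rows of their own. Segments were summed per gene.

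The 10 genes and all lists were chosen with earlier results of these data known. Within each list of pathway genes, up to 3 called genes per direction with the smallest adjusted p are named. The test was that of edgeR 4.0.16 under R 4.3.3 (TMM, filterByExpr, quasi-likelihood test, Benjamini-Hochberg, threshold 0.05). Alternatives were RLE, total-count and upper-quartile scaling, no filter, at least 10 counts in every library, DESeq2 1.42.0 without and with ashr 2.2.63, limma-voom 3.58.1, a replicate block, leaving out the 20 highest genes, drawing down to 1606909 counts, the most distal counted segment only, the distal index as covariate, and each library left out. The index used segments with at least 200 unique bp and 50 counts on each side, with 0.5 added. The fits were tested on simulated data. Counts set the precision, and the floor of 3 counts covers counting error only. No replicate pair agreed within sampling noise, and whether mice share litters or cages is not stated. Sequences were read with Python 3.11.15, with coordinates 1-based on GRCm39.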

Additional observations from a re-analysis of the deposited data

Results flagged for a closer look

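In each group of 5 libraries, the highest and lowest values of each of the 10 genes were compared with the rest by Dixon's test, over 20 groups in all, of which chance flags about 1 in 20. Gadd45a was at 141 CPM in ASO replicate 2, a gap to the next library of 0.746 of the group's range. Trp53inp1 was at 39.6 CPM in CTRL replicate 2, a gap of 0.851 of the range. Both exceed the critical value of 0.71.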

How the results depend on the processing

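Bax alone was called with total-count scaling and with at least 10 counts in every library. The number of p53 response genes called was 2 with RLE or upper-quartile scaling, limma-voom, the replicate block, drawing down and without the 20 highest genes (2 higher, Bax and Trp53inp1), 2 without the filter (1 lower, Mdm2), 2 on the most distal segments (Mdm4 higher and Mdm2, 1 lower), 3 with DESeq2, with or without ashr (2 higher and Mdm2, 1 lower), and 0 with the distal index as covariate (0 higher). Leaving out each library gave 1 to 3 called, 1 to 3 higher and 0 to 1 lower. Of 7819 genes, 8 of them p53 response genes, RLE called 1053 higher and 1300 lower, limma-voom 922 and 1354, and the block 663 and 1175. DESeq2 called 1105 and 1470 of 10379 (9 p53 response genes tested), and the fit without the filter 787 and 1383 of 14150 (10). On the most distal segments it was 388 and 604 of 6081 (8), and with at least 10 counts 865 and 1178 of 6327 (6).

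Over all genes, 528 were higher with total counts, 388 higher and 604 lower on the most distal segments, and 0 higher and 0 lower with the covariate, with 438 at an unadjusted p under 0.05. With a library left out, 691 to 1021 genes were higher and 1126 to 1370 lower, of 7927 to 8054 tested. Trp53inp1 passed the threshold with RLE (0.96), upper quartile (1.01), DESeq2 (0.97), ashr (0.66), limma-voom (1.01), the block (1.02, adjusted p 0.012), drawing down (0.98) and without the 20 highest genes (0.97). It did not with total counts (0.77), no filter (0.95), at least 10 counts (0.91), the most distal segments (0.73) or the covariate (0.0078). On the most distal segments Mdm4 passed with 0.80 (adjusted p 0.0098), and Bax did not (0.44), nor with the covariate (0.26). Signs turned for Bbc3 with upper quartile (0.0023), for Tigar on distal segments (0.18), and with the covariate for Cdkn1a (2.04), Ccng1 (-0.034), Ep300 (-0.52), Huwe1 (0.88), Cop1 (0.58), Siva1 (-0.21) and Rbl2 (0.30). Their cause was not tested.

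With each library left out, changes ranged from 0.60 to 0.75 for Bax, 0.78 to 1.39 for Trp53inp1, 0.38 to 0.66 for Ccng1, 0.36 to 0.69 for Mdm4, -1.51 to -0.89 for Cdkn1a, -0.0056 to 0.69 for Gadd45a, -0.27 to 0.13 for Bbc3, 0.16 to 0.37 for Trp53inp2 and, in the 6 fits where it passed the filter, -1.40 to -1.13 for Mdm2. Mdm2 passed the filter there through its CTRL libraries, with 9 to 22 counts against 5 to 9 in the ASO libraries. Its calls in these 6 fits are therefore no further support for a fall. Trp53inp1 was also called without ASO replicate 5 (1.07, adjusted p 0.045).

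The numbers do not pair the mice. Deviations of same-numbered libraries correlated at -0.43 to 0.165, and for 0 of 5 numbers was the correlation within the number the highest. The block gave 663 genes higher and 1175 lower.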
